A study of Mus musculus with 2 samples.

Results

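The BCL2 family decides whether a cell under stress permeabilises its mitochondria, and 10 of its genes are described here in single bone-marrow progenitors of the mouse. They were taken by gene symbol, 10 of the 27998 genes counted, and all 10 were found. They comprise 4 survival genes (Bcl2, Mcl1, Bcl2l1, which encodes BCL-XL, and Bcl2a1b, a copy of the A1 gene) and 6 death genes. The death genes are the pore-forming effectors Bax and Bak1 and the BH3-only genes Bcl2l11 (encoding BIM), Bid, Bbc3 (encoding PUMA) and Pmaip1 (encoding NOXA). The cells were multipotent progenitors (MPPs), which lie below the haematopoietic stem cell and can still enter lymphoid and myeloid lineages. They were sorted by surface markers that the labels spell as Lin-, Sca-1+, c-kit+, CD34+ and Flt3L+, 20 h after thioglycollate, a peritoneal irritant, had been injected into the peritoneum. The series compared 1 C57BL/6 Spp1-/- sample with 1 C57BL/6 WT sample; Spp1 encodes osteopontin, a secreted matrix protein and cytokine. Both came from thioglycollate-treated mice, so no sample of an untreated mouse was set beside them, and the labels give neither the age nor the number of mice.

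The survival proteins hold the effectors in check at the outer mitochondrial membrane. BH3-only proteins, which are switched on by growth-factor withdrawal, DNA damage or death receptors, bind the survival proteins or the effectors, and released BAX and BAK then let cytochrome c out to start the caspases. In blood formation, MCL1 is needed for the survival of stem and early progenitor cells, BCL2 is known above all for its role in lymphocytes, and A1 is found mainly in activated leukocytes and neutrophils. Transcript levels are only one layer of this control, because MCL1, BIM and BID in particular are also controlled as proteins.

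The deposited counts held 2 libraries in a single matrix, told apart by a suffix of the cell barcode whose genotype is not stated. They are called library 2 and library 1, and ratios are given as library 2 over library 1 with no direction by genotype. Cells with at least 500 genes and under 10% mitochondrial counts were kept, which left 4570 cells of library 2 and 3253 cells of library 1. They held 18750468 unique molecular identifiers (UMIs, each standing for 1 counted transcript molecule) in library 2 and 10118499 in library 1, a median of 3836 and 2830 per cell. With 1 library per genotype there is no replicate, so no test was possible, and every 95% interval given below covers counting error only. A total of 32 barcode sequences occurred in both libraries. The genes of the sort were present, with Cd34 at 457 and 413 counts per 1000000 UMIs (CPM), Flt3 at 141 and 122 CPM, Ly6a (Sca-1) at 294 and 311 CPM and Kit at 36.6 and 36.1 CPM in library 2 and library 1. Of the markers of other cell types, the T-cell genes Cd3e and Cd3g, the NK-cell gene Ncr1, the neutrophil gene Retnlg and the basophil gene Prss34 were at 0 UMIs in both libraries. Other genes of these lists were counted. The basophil or mast cell list summed to 11.9 and 10.7 CPM, nearly all of it Mcpt8 (210 and 106 UMIs), and the neutrophil gene S100a8 had 421 and 107 UMIs. The NK-cell list summed to 320 and 299.8 CPM, nearly all of it Nkg7, and the B-cell list to 71.04 and 64.4 CPM, nearly all of it Cd79b. The summed macrophage list stood at 6.35 and 10.9 CPM, the neutrophil list at 35.6 and 17.8 CPM and the haemoglobin list at 48.2 and 101 CPM in library 2 and library 1. The part of such cells in the results below was not tested.

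Gene starts are known for the members, and the sequence upstream of 3 of them is shown because their counts carry most of what follows: Bcl2, the member called in most ranges by the interval rule given below, Mcl1, the second survival gene by level, and Bax, the most abundant death member. Each is the 250 bases before the RefSeq start on GRCm38.p6, 5′ to 3′ on the gene's own strand, at chr1:106714291-106714540 (minus strand) for Bcl2, chr3:95658471-95658720 (plus strand) for Mcl1 and chr7:45466899-45467148 (minus strand) for Bax. Capitals mark matches, on either strand, to GGGCGG (the GC box of SP factors), GAGGAA (the core of PU.1 sites), TTCNNNGAA (the motif of STAT factors), AGATAA (the motif of erythroid zinc-finger factors such as GATA1), GAAA repeated after any 2 bases (the motif of interferon regulatory factors) and the p53 decamer, the unit of which a full p53 site holds a pair.
Bcl2: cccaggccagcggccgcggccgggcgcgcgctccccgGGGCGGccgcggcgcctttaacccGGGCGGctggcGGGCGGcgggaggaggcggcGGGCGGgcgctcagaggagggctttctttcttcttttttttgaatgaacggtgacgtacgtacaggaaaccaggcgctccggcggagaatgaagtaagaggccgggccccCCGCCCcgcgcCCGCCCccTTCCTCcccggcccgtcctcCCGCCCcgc
Mcl1: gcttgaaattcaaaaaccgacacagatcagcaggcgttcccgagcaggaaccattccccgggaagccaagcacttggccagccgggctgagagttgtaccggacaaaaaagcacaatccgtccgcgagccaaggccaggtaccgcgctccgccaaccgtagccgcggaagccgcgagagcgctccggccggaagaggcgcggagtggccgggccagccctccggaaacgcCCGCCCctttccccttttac
Bax: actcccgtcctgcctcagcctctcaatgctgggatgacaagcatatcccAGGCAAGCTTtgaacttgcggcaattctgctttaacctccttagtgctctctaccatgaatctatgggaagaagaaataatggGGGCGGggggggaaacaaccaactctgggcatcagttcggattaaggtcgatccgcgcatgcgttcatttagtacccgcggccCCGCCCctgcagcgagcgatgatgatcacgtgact
The Bcl2 sequence held 7 GC boxes and 1 PU.1 core, 29 bases before the start. Mcl1 held 1 GC box, and Bax held 2 GC boxes and 1 p53 decamer, 201 bases before the start. Of 32851 RefSeq promoters of this length, 32.7% held a GC box, 23.3% a PU.1 core, 7.13% a p53 decamer, 7.02% the STAT motif, 2.98% the interferon regulatory factor motif and 9.99% the GATA motif. The last 3 motifs were in none of the 3 sequences, which says only that these letters are absent from these windows. The GC content was 74.8% for Bcl2, 64.4% for Mcl1 and 54.0% for Bax, against a median of 52.4% over all promoters. RefSeq entries of 9 of the 10 members were used, which does not show whether RefSeq holds an entry for the other member. In GENCODE M21 (GRCm38), Bcl2 spans chromosome 1 from 106538178 to 106714274, Mcl1 chromosome 3 from 95658788 to 95663176 and Bax chromosome 7 from 45461697 to 45466898, all protein-coding. The bases just after the RefSeq start were found in a GENCODE transcript of the gene for Bax, but not for Bcl2 or Mcl1. Positions of matches therefore hold for the RefSeq start only.

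Death transcripts outnumbered survival transcripts in both libraries, and Bax alone gave more UMIs than the 4 survival genes together. Because 1 UMI is counted per molecule at the 3′ end, levels were compared between genes without division by length. Bax, whose product forms the mitochondrial pore, stood at 232 CPM (225 to 239) in library 2 and 212 CPM (203 to 221) in library 1, from 4345 and 2144 UMIs. Over both libraries it ranked 633 among all genes by UMIs. Bak1, the second effector, stood at 63.2 CPM (59.7 to 66.9) and 62.3 CPM (57.5 to 67.3) in library 2 and library 1. Bid, which links death receptors to mitochondria after cleavage by caspase-8, stood at 39.4 CPM (36.6 to 42.4) in library 2 and 33.1 CPM (29.7 to 36.8) in library 1. Bad, a BH3-only gene that is not among the members, stood above Bid, at 107 and 110 CPM. The other BH3-only members were far lower than Bid. Bcl2l11 was at 6.35 CPM in library 2 and 5.83 CPM in library 1, Bbc3, a p53 target, at 2.24 and 2.77 CPM, and Pmaip1, another p53 target, at 1.49 and 0.494 CPM.

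Among the survival genes, Bcl2 led by a wide margin. Bcl2 stood at 91.9 CPM (87.7 to 96.4) in library 2 and 75.7 CPM (70.4 to 81.3) in library 1, from 1724 and 766 UMIs. Mcl1, the short-lived family member, followed at 25.5 CPM (23.3 to 27.9) and 28.5 CPM (25.3 to 31.9), and Bcl2l1 at 6.61 CPM (5.5 to 7.88) and 6.42 CPM (4.96 to 8.19) in library 2 and library 1. Bcl2a1b had 12 and 5 UMIs. Of the 50-base words in the last 300 bases of its transcript, 76.5% also occur in Bcl2a1a, Bcl2a1d or Gm29094, so its counts cannot be assigned to 1 copy; the other 9 members shared none. The order of levels was the same in both libraries: Bax, Bcl2, Bak1, Bid, Mcl1, Bcl2l1, Bcl2l11, Bbc3. Among neighbours in this order, the intervals of Bcl2l1 and Bcl2l11 overlapped in both libraries. In library 1, Bid and Mcl1 (33.1 and 28.5 CPM) overlapped as well. Pmaip1 and Bcl2a1b came last.

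**Figure D1:**
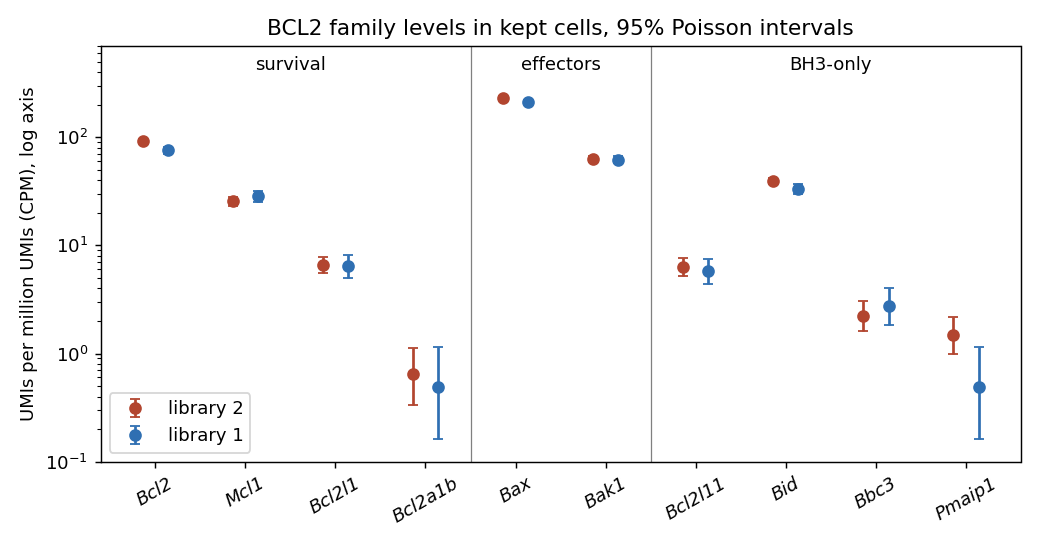
Level of each of the 10 BCL2 family genes (vertical axis, CPM on a log scale) in library 2 and library 1, grouped as survival, effector and BH3-only genes, with points for the level and bars for the exact Poisson 95% interval. Bax stands highest at 232 and 212 CPM, and Bcl2 is the highest survival gene at 91.9 and 75.7 CPM.

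No member with enough counts for a call differed by the fold rule between the libraries. A gene was called different when it was past 1.5-fold, among genes with at least 50 UMIs. Bcl2a1b and Pmaip1 fell below that minimum, and 0 of the other 8 members were past 1.5-fold, against 4.81% of 10101 genes past it upward and 2.46% downward. The log2 ratios of these 8 ran from -0.30 for Bbc3 (-1.03 to 0.44) to 0.28 for Bcl2 (0.16 to 0.41). The median over all 10101 genes was 0.11, and values are to be read against it. By a looser rule, an interval that leaves out 1, Bcl2, Bax (0.13, 0.05 to 0.20) and Bid (0.25, 0.06 to 0.44) were higher in library 2 and 0 members lower, against 28.4% of genes higher and 7.29% lower. The Bcl2 interval lay above the median of all genes, while the Bax and Bid intervals included it. For Mcl1 the log2 ratio was -0.16 (-0.37 to 0.06), for Bak1 0.02 (-0.12 to 0.16), for Bcl2l1 0.04 (-0.40 to 0.50) and for Bcl2l11 0.12 (-0.34 to 0.60). Pmaip1 had 28 UMIs in library 2 and 5 in library 1, a log2 ratio of 1.60 with an interval of 0.20 to 3.33.

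To describe the members by state, each cell was thinned to 2000 UMIs, and cells were placed in ranges by their UMIs of fixed gene lists that hold no BCL2 family member. This left 4016 cells of library 2 and 2444 of library 1 and set aside 554 and 809 shallower cells. The lymphoid range (Dntt, Il7r, Ly6d, Rag1, Rag2, Satb1; 4 or more UMIs) held 605 cells of library 2 and 283 of library 1. The granule range (Mpo, Ctsg, Elane, Prtn3, Ms4a3, genes of neutrophil and monocyte granules and their precursors; 6 or more) held 480 and 329. The Irf8 and Csf1r range (2 or more, genes of the monocyte and dendritic lineages) held 227 and 105. The megakaryocyte-erythroid range (Car2, Gata2, Gata1, Klf1, Car1, Itga2b, Pf4, Vwf; 3 or more) held 367 and 130, and the stem range (Hlf, Mecom, Procr, Mllt3; 2 or more) 90 and 44. The Il7r range (1 or more) held 110 and 60, and the MHC class II range 2 and 29. An S phase range held 591 and 195 cells, a G2 and mitosis range 717 and 195 and a low cycling range 664 and 646. The 2409 and 1587 cells in no lineage range are called unprimed.

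The ranges are cuts along a continuous score and not cell types: 157 and 85 cells of the lymphoid range lie exactly at its threshold and 228 and 123 just below it. They also overlap, as 22.5% and 14.5% of the lymphoid range lay in the G2 and mitosis range too. Both the lymphoid and the granule threshold were passed by 12 and 4 cells. In each library a range was set against the other cells of the same library, with levels from the full UMIs of each cell. Depth moved with the ranges. The granule range had a median of 5542 and 4265 UMIs per cell, against 3958.5 and 3152 in other cells, while the lymphoid range had 3679 and 2774, against 4194 and 3335. The G2 and mitosis range had 5179 and 3836, against 3859 and 3206, and the low cycling range 2714 and 2723, against 4359 and 3441. From thinned cells the Bcl2 ratio in the G2 and mitosis range was 0.34 and 0.45 on the log2 scale, and the Bak1 ratio in the low cycling range -0.22 and -0.50, in library 2 and library 1. What depth contributed was not tested beyond the thinned levels given below.

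Few members were called in any range, and Bcl2 made up most of the calls by interval. Of the 88 pairs of a measured member and a range, 4 were past 1.5-fold in the same direction in both libraries, against 5.73% of such pairs over all genes. They were lower Bcl2 in the stem range and higher Bbc3 in the stem, megakaryocyte-erythroid and low cycling ranges, where Bbc3 rested on 1 to 8 UMIs in each library. By the interval rule 7 of 88 pairs were called, against 4.71% over all genes, and 5 of the 7 were Bcl2. Bax in the granule range and Bak1 in the low cycling range were the other 2. Of the 10101 genes, 2.1% had 5 or more of the 11 ranges called by interval. These genes were not matched to Bcl2 by level, and Bcl2 ranked 1600 among all genes by UMIs. Its 5 calls are also not separate, because ranges share cells and the unprimed range is what the lineage ranges leave.

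**Figure D2:**
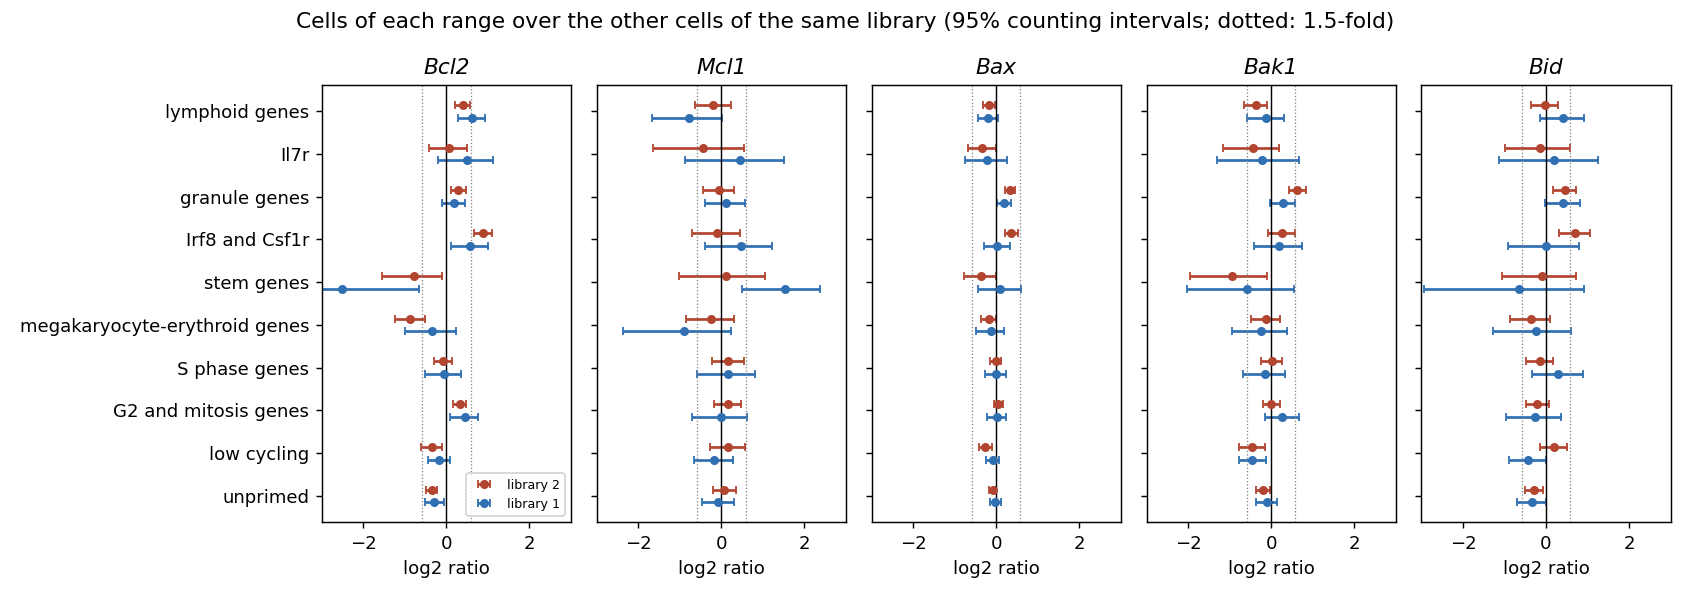
Log2 ratio of the level in each range to that in the other cells of the same library (horizontal axis) for Bcl2, Mcl1, Bax, Bak1 and Bid, with points for library 2 and library 1 bars for 95% counting intervals and dotted lines at 1.5-fold; the Bcl2 bar of the stem range in library 1 runs past the axis, down to -5.57. Bcl2 lies right of 0 in the lymphoid, Irf8 and Csf1r, and G2 and mitosis ranges and left of 0 in the stem range in both libraries, while the Mcl1 bars include 0 in all ranges shown but the stem range of library 1.

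Bcl2 was higher in cells that carried lymphoid genes. Its level in the lymphoid range was 118 CPM, against 90.3 CPM in other cells of library 2 (log2 0.39, 0.20 to 0.58), and 116 CPM, against 76.1 CPM in other cells of library 1 (0.61, 0.28 to 0.92). It was 1 of 8 members higher there by interval, against 3.41% of all genes. Along the lymphoid score, in bins set after the ranges had been seen, library 2 went through 86.7, 89.7, 104, 108 and 144 CPM for 0, 1, 2 to 3, 4 to 7 and 8 or more lymphoid UMIs. Library 1 went through 68.4, 83.8, 96.6, 111 and 133 CPM over the same bins. The top bin held 182 and 75 cells, and its interval was 117 to 177 CPM in library 2 and 87.1 to 195 CPM in library 1. Both libraries thus had their lowest level where no lymphoid UMI was seen and their highest in the top bin. In the small Il7r range Bcl2 was at 97.4 CPM, against 93.8 CPM in other cells of library 2, and at 112 CPM, against 79.1 CPM in library 1, with both intervals of the ratio including 1.

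Bcl2 was also higher in cells with transcripts of Irf8, a transcription factor of dendritic and monocyte development, and Csf1r, the M-CSF receptor gene. It stood at 165 CPM, against 88.9 CPM in other cells of library 2 (log2 0.89, 0.67 to 1.11), and at 116 CPM, against 78.1 CPM in other cells of library 1 (0.57, 0.11 to 1.0). In this range 1.66% of all genes were higher by interval in both libraries, and 1 of 8 members was. A single Irf8 or Csf1r UMI already went with 135 CPM (122 to 149) in library 2 and 116 CPM (97.3 to 138) in library 1, against 79.0 CPM (74.4 to 83.9) and 72.3 CPM (66.3 to 78.7) at none. At 3 or more UMIs the levels were 188 CPM (150 to 233) and 139 CPM (86.1 to 213). In cells of this range that lay outside the granule range, Bcl2 was at 179 CPM (152 to 208) in library 2 and 107 CPM (73.3 to 151) in library 1. The 35 and 18 cells in both ranges had 116 CPM (78.5 to 166) and 143 CPM (78.0 to 239). The order of these groups differed between the libraries, and their intervals overlapped in both libraries. The range held different cells in the 2 libraries: 0.881% of its cells in library 2 and 20% in library 1 also lay in the MHC class II range, 29.96% and 18.1% in the lymphoid range and 7.05% and 27.6% in the low cycling range. Without the cells of the MHC class II range, the Bcl2 ratio to other cells was 0.90 in library 2 and 0.77 in library 1 on the log2 scale.

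**Figure D3:**
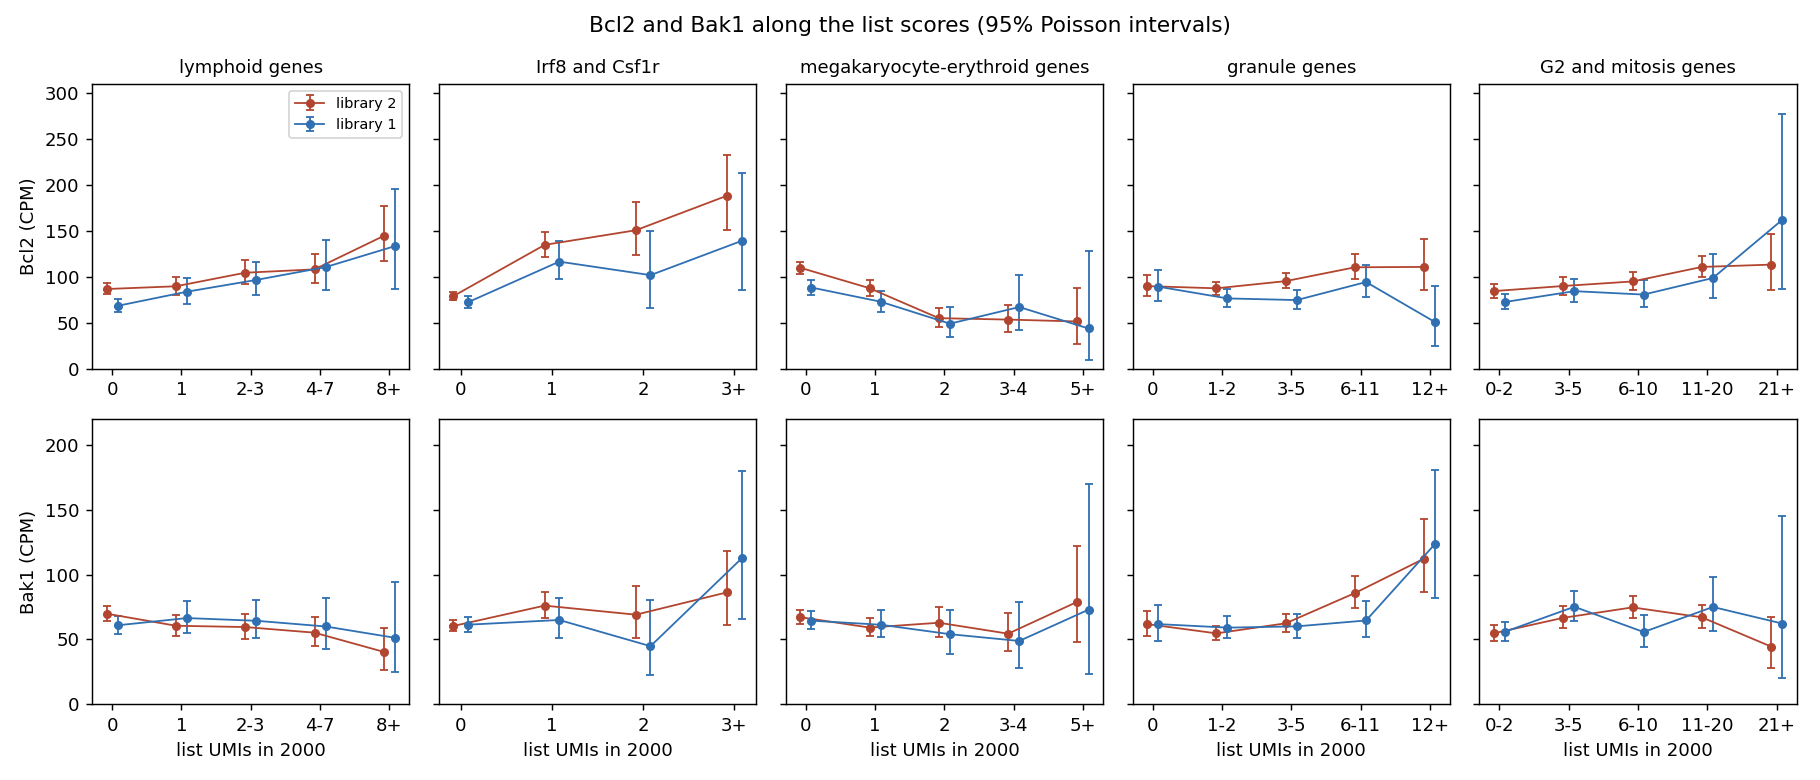
Bcl2 (upper row) and Bak1 (lower row) levels (vertical axes, CPM) by the number of UMIs of each list in the thinned cell (horizontal axes), for library 2 and library 1, with exact Poisson 95% intervals. Bcl2 runs from 86.7 and 68.4 CPM at 0 lymphoid UMIs to 144 and 133 CPM at 8 or more.

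At the other end, Bcl2 was lowest in cells with stem or megakaryocyte-erythroid genes. In the stem range, named for genes of long-term repopulating cells, it stood at 55.0 CPM (18 UMIs), against 94.6 CPM in other cells of library 2 (log2 -0.78, -1.54 to -0.12). In library 1 it stood at 14.05 CPM (2 UMIs), against 80.9 CPM (-2.53, -5.57 to -0.67). This was 1 of 8 members past 1.5-fold downward, against 2.2% of all genes, and downward by interval, against 0.426%. Cells with a single stem UMI lay between, at 74.6 CPM and 67.4 CPM in library 2 and library 1, against 97.2 and 83.0 CPM in cells with none. In the megakaryocyte-erythroid range Bcl2 was at 53.1 CPM, against 97.1 CPM in other cells of library 2 (-0.87, -1.24 to -0.52), and at 63.1 CPM, against 80.6 CPM in other cells of library 1 (-0.35, -0.99 to 0.22). The interval of library 1 included 1, so this pair was not called. By bins, library 2 went through 110, 87.6, 55.0, 53.5 and 51.4 CPM for 0, 1, 2, 3 to 4 and 5 or more UMIs, and library 1 through 88.3, 72.9, 49.0, 67.1 and 43.8 CPM, the last from 3 UMIs in 24 cells. In both libraries the level at 2 UMIs lay below that at 0, with intervals that did not overlap (45.0 to 66.6, against 103 to 117 CPM in library 2, and 34.9 to 67.0, against 80.6 to 96.6 CPM in library 1).

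Along the cell cycle Bcl2 was higher in cells with mitotic transcripts. In the G2 and mitosis range it stood at 111 CPM, against 89.1 CPM in other cells of library 2 (log2 0.32, 0.16 to 0.48), and at 105 CPM, against 77.3 CPM in other cells of library 1 (0.44, 0.10 to 0.77), where 4.38% of all genes were higher by interval. In the S phase range it was at 89.6 CPM, against 94.6 CPM in library 2, and at 76.3 CPM, against 80.1 CPM in library 1, and 0 of 8 members were called there, against 2.35% of all genes higher and 1.22% lower. In the low cycling range it was at 75.4 CPM, against 96.3 CPM in library 2, and at 72.7 CPM, against 81.9 CPM in library 1, where the interval included 1. Lymphoid and mitotic ranges could be crossed. Lymphoid cells in the G2 and mitosis range had 132 CPM in library 2 and 131 CPM in library 1. Lymphoid cells in the low cycling range had 95.1 and 76.9 CPM. Unprimed cells had 94.4 and 103 CPM in the G2 and mitosis range, and 75.1 and 75.5 CPM in the low cycling range. Mitotic cells had the higher level in each of these 4 pairs, but the intervals of each pair overlapped, for example 105 to 163 and 67.3 to 131 CPM in lymphoid cells of library 2. Over all unprimed cells Bcl2 was at 84.3 CPM, against 108 CPM in primed cells of library 2 (-0.36, -0.50 to -0.22), and at 73.9 CPM, against 90.3 CPM in primed cells of library 1 (-0.29, -0.51 to -0.07), where 2.27% of all genes were lower by interval.

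Mcl1 was called in none of the 11 ranges. Of its 22 ratios to other cells, those whose interval left out 1 were both in small ranges of library 1, the stem range (77.3 CPM from 11 UMIs, against 26.9 CPM; log2 1.52, 0.50 to 2.39) and the MHC class II range (71.3 CPM from 9 UMIs, against 27.1 CPM). In library 2 the stem range was at 27.5 CPM (9 UMIs), against 25.5 CPM. In the lymphoid range Mcl1 was at 22.8 CPM, against 26.0 CPM in library 2, and at 16.9 CPM (14 UMIs), against 28.8 CPM in library 1. Its counts allowed changes of this size to go undetected, since the interval in library 1 was -1.66 to 0.01 on the log2 scale. In the G2 and mitosis range it was at 27.8 CPM, against 24.9 CPM, and at 27.5 CPM, against 27.7 CPM, in library 2 and library 1. Bcl2l1, which supports the survival of late erythroid cells and platelets, had 7 and 2 UMIs in the megakaryocyte-erythroid range, 5.46 and 5.05 CPM, against 6.57 and 6.95 CPM in other cells. In the G2 and mitosis range Bcl2l1 stood at 5.82 CPM, against 6.68 CPM in library 2, but at 15 CPM (12 UMIs), against 6.06 CPM in library 1. Bcl2a1b had at most 7 UMIs in any range of a library.

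Among the death genes, Bax was called in the granule range alone, by interval. Bax stood at 281 CPM in the granule range, against 223 CPM in other cells of library 2 (log2 0.33, 0.22 to 0.45), and at 241 CPM, against 212 CPM in other cells of library 1 (0.18, 0.02 to 0.35). It was 1 of 8 members higher by interval there, against 5.09% of all genes, a share that makes such a call common in this range. With levels taken from thinned cells the ratio in library 2 was 0.16. In the Irf8 and Csf1r range Bax was at 294 CPM, against 228 CPM in library 2 (0.37, 0.20 to 0.53; 0.06 from thinned cells), and at 222 CPM, against 217 CPM in library 1 (0.03, -0.29 to 0.34). In the granule range Bak1 was at 91.3 CPM, against 58.8 CPM in library 2 (0.63, 0.43 to 0.84), and at 73.1 CPM, against 60.0 CPM in library 1 (0.28, -0.03 to 0.59). The cells of the granule range were deeper than others, and no thinned ratio is given here for Bak1, nor for Bax in library 1. Bid was at 50.9 CPM, against 37.1 CPM (0.45, 0.18 to 0.72), and at 41.1 CPM, against 31.0 CPM (0.41, -0.02 to 0.81), and its ratio from thinned cells was 0.05 in library 2 and 0.37 in library 1. Bcl2 there was at 110 CPM, against 90.8 CPM in library 2 (0.28, 0.10 to 0.46; -0.07 from thinned cells), and at 88.1 CPM, against 78.1 CPM in library 1 (0.17, -0.11 to 0.45). In the 73 and 34 cells with 12 or more granule UMIs, Bax reached 315 CPM (271 to 364) and 294 CPM (226 to 375), Bak1 112 CPM (87.0 to 143) and 124 CPM (81.7 to 180), and Bid 78.4 CPM (57.4 to 104) and 82.7 CPM (49.0 to 131). At 0 granule UMIs the same genes stood at 221 and 220 CPM, 61.8 and 61.8 CPM, and 33.8 and 29.8 CPM. Depth differed between these bins, with a median of 7869 and 6075 UMIs per cell at 12 or more, against 3537.5 and 2990 at 0. Bin levels came from full UMIs, and what depth contributed to them was not tested. Bcl2 in that top bin was at 111 CPM (85.5 to 141) in library 2 but at 50.5 CPM (25.2 to 90.4, 11 UMIs) in library 1.

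Bak1 was lower in the low cycling range, at 48.1 CPM, against 66.0 CPM in other cells of library 2 (log2 -0.46, -0.77 to -0.15), and at 48.5 CPM, against 66.3 CPM in other cells of library 1 (-0.45, -0.78 to -0.13). It was 1 of 8 members lower by interval there, against 8.2% of all genes, a share that makes such a call common in this range. The range also held shallower cells, with a median of 2714 and 2723 UMIs, against 4359 and 3441 in other cells. From thinned cells, as given above, the Bak1 ratio of library 2 was smaller in size. Bax in the low cycling range was at 198 CPM, against 237 CPM in library 2 (-0.26, -0.41 to -0.11), and at 208 CPM, against 220 CPM in library 1 (-0.08, -0.24 to 0.07). Bax had 231 and 217 CPM in the S phase range and 239 and 219 CPM in the G2 and mitosis range of library 2 and library 1, with all 4 intervals of the ratio to other cells including 1. In the lymphoid range Bax was at 210 CPM, against 236 CPM in library 2 (-0.17, -0.31 to -0.03), and at 192 CPM, against 220 CPM in library 1 (-0.20, -0.44 to 0.04). Bid in the Irf8 and Csf1r range was at 61.3 CPM, against 37.8 CPM in library 2 (0.70, 0.32 to 1.05), but at 32.8 CPM, against 32.7 CPM in library 1 (0.00, -0.93 to 0.80). Without the cells of the MHC class II range, in which Bid had 0 UMIs in both libraries, these ratios were 0.71 and 0.36. The same 35 and 18 cells with both Irf8 or Csf1r and granule genes had 438 CPM of Bax (361 to 527) in library 2 and 255 CPM (165 to 376) in library 1.

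The low BH3-only genes gave few UMIs per range. Bcl2l11, whose product sets the death of lymphocytes deprived of cytokine, had 18 and 8 UMIs in the lymphoid range, 7.73 CPM, against 5.79 CPM in library 2, and 9.66 CPM, against 5.71 CPM in library 1. In the low cycling range it had 3.47 CPM, against 6.37 CPM, and 4.95 CPM, against 6.41 CPM in library 2 and library 1. All 22 Bcl2l11 intervals included 1. Bbc3 had 5 and 2 UMIs in the megakaryocyte-erythroid range (log2 1.02 and 1.03), 2 and 1 in the stem range (1.62 and 1.48) and 6 and 8 in the low cycling range (0.61 and 0.86). These 6 intervals also included 1, and past 1.5-fold upward stood 5.53% of all genes in the stem range, 4.28% in the megakaryocyte-erythroid range and 2.46% in the low cycling range. Pmaip1 had 9 and 2 UMIs in the granule range, 3.13 CPM, against 1.27 CPM in library 2, and 1.30 CPM, against 0.41 CPM in library 1. Of its 28 UMIs in library 2, 14 lay in unprimed cells, against 1 of 5 in library 1.

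The balance of death to survival transcripts was nearly the same in both libraries and shifted between ranges. Death genes made up 73.4% of member UMIs in library 2 (72.5 to 74.3; 6458 death and 2338 survival UMIs) and 74.0% in library 1 (72.7 to 75.3; 3201 and 1124). The share was lower in the lymphoid range, at 67.4% (64.5 to 70.2), against 74.0% in other cells of library 2, and at 68.7% (63.6 to 73.4), against 74.2% in other cells of library 1. In the Irf8 and Csf1r range it was 69.1% (65.7 to 72.4), against 73.6%, and 67.2% (60.1 to 73.7), against 74.0%. In the G2 and mitosis range it was 70.4% (68.3 to 72.4), against 74.0%, and 68.9% (64.0 to 73.6), against 74.2%. The share was higher in the megakaryocyte-erythroid range, at 78.9% (75.1 to 82.4), against 72.8% in other cells of library 2, and at 77.6% (69.9 to 84.0), against 73.5% in other cells of library 1. In these 4 ranges the intervals of the range and of other cells were apart in library 2 and overlapped in library 1. In the lymphoid bins it stood at 75.1% and 75.6% with no lymphoid UMI and at 63.5% and 65.5% with 8 or more, in library 2 and library 1. In the granule range it was 75.1%, against 72.7%, and 74.3%, against 73.5%, and the top granule bin had 77.9% and 83.3%. In the S phase, low cycling and unprimed ranges it was 72.4% and 74.6%, 73.1% and 73.9%, and 74.0% and 74.5%. The small Il7r range had 69.8% (62.3 to 76.5) and 65.0% (53.5 to 75.3), and the stem range 74.6% (65.6 to 82.3) and 76.7% (64.0 to 86.6). Bax carried most of the share: without it the death genes made up 47.5% of member UMIs in library 2 and 48.5% in library 1. A higher share need not mean more death transcripts. Bax in the megakaryocyte-erythroid range was at 207 CPM, against 235 CPM in other cells of library 2. Library 1 had 199 CPM, against 218 CPM, with an interval of the ratio that included 1. Bak1 and Bid were lower there too, with intervals that included 1, and Bbc3 was higher from 5 and 2 UMIs. Bcl2 was lower there and higher in the 3 ranges with a lower share named first above. The share counts transcripts and gives each member the same weight, whatever its protein does.

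**Figure D4:**
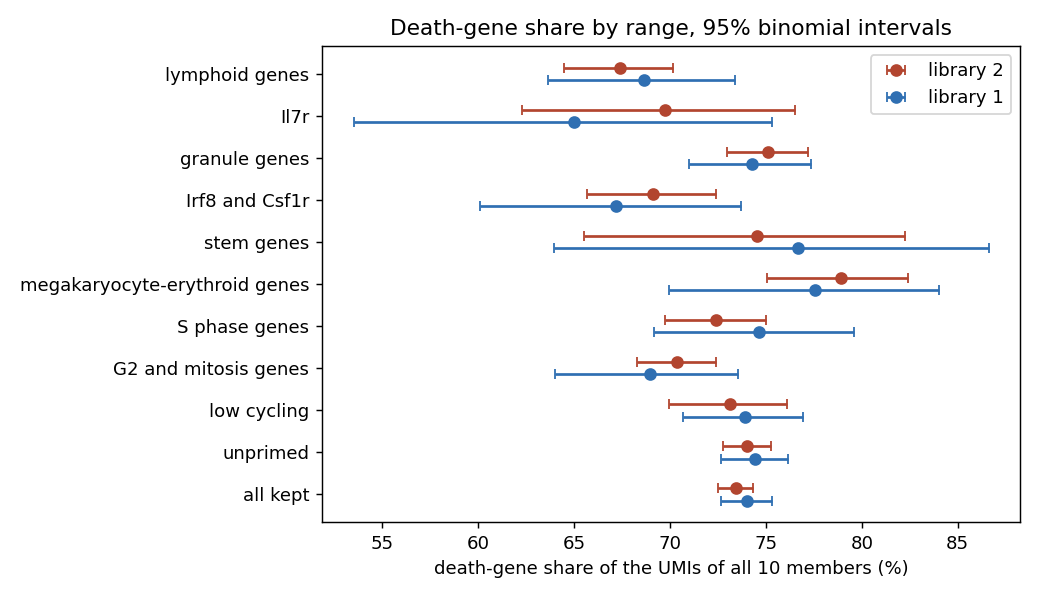
Share of BCL2 family member UMIs that come from the 6 death genes (horizontal axis, percent) in each range, for library 2 and library 1, with exact binomial 95% intervals and all kept cells (73.4% and 74.0%) in the lowest row. The lymphoid range lies lowest among ranges of at least 250 cells in both libraries (67.4% and 68.7%). In library 1 the smaller Irf8 and Csf1r range (67.2%) and Il7r range (65.0%) lie lower still. The megakaryocyte-erythroid range lies at 78.9% and 77.6%.

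The genes whose pattern over ranges was most like that of each member were found among 7526 genes, by Pearson's r of log2 (CPM + 5), centred within each library, over 18 points (9 ranges in 2 libraries, which share cells). This is a description, since the ranges overlap. For Bcl2 they were Ly86 (0.93), which encodes the MD-1 partner of a Toll-like receptor homologue, Tmem229b (0.92) and Clec12a (0.91), a myeloid lectin receptor gene. For Bax they were Rab44 (0.95), Hspa4 (0.92) and Ndufb6 (0.92), and for Bak1 Hspa4 (0.91), Polr1d (0.89) and Ndufb6 (0.89). For Bid they were Stom (0.85), Psma2 (0.80) and Nrros (0.79), and for Mcl1 Srf (0.86), Upf3a (0.83) and Tmem167 (0.80). Between members, r was 0.86 for Bax and Bak1, 0.60 for Bcl2 and Bid, 0.41 for Bcl2 and Bax and 0.22 for Bcl2 and Mcl1.

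The rest of the pathway was measured in the same cells. Of 16 other BCL2 family genes 8 had at least 50 UMIs, and Bcl2l12 (120 and 113 CPM) and the BH3-only gene Bad (107 and 110 CPM), whose product is silenced by survival kinases, stood above Bcl2 in both libraries. Hrk and Bcl2l15 were at 0 UMIs. Between the libraries 1 of these 8 was past 1.5-fold, Bcl2l14 (2.72 CPM in library 2 and 1.48 CPM in library 1; log2 0.88, 0.02 to 1.81). Of 16 genes of caspase activation downstream of mitochondria, 1 was higher, Cycs, the cytochrome c gene (194 and 123 CPM; 0.66, 0.57 to 0.75), and 1 lower, Endog (7.68 and 11.96 CPM). Of 8 measured genes of the death receptor arm 2 were higher, Tradd, an adaptor of the TNF receptor (41.9 and 26.3 CPM; 0.67, 0.47 to 0.88), and Fadd (17.5 and 11.6 CPM). Of 12 upstream regulators 0 were higher and 1 lower, Foxo1 (2.77 and 4.35 CPM). Endog, Fadd and Foxo1 are named after their values were seen. These counts stand beside 4.81% of all 10101 genes past 1.5-fold upward between the libraries and 2.46% downward. The list medians were 0.07, 0.16, 0.22 and 0.04 on the log2 scale, beside 0.11 for all genes.

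Across ranges, few pathway genes were past 1.5-fold in both libraries. Casp6, an executioner caspase gene, was higher in the lymphoid range, at 60.6 CPM, against 39.9 CPM in other cells of library 2 (log2 0.60), and at 51.9 CPM, against 33.1 CPM in other cells of library 1 (0.65), where 3.09% of all genes were higher. Bok, a BAX-like gene, was lower there (4.30 CPM, against 8.75 CPM, and 4.83 CPM, against 8.19 CPM), as was Tnfrsf1b (log2 -0.80 and -1.38), which encodes the second TNF receptor, beside 3.93% of all genes. Pim1, a kinase that restrains BAD, was higher in the low cycling range, at 141 CPM, against 84.0 CPM in library 2 (0.75), and at 157 CPM, against 102 CPM in library 1 (0.62). It was also higher in the stem range (0.59 and 0.74) and lower in the Irf8 and Csf1r range, at 57.01 CPM, against 92.8 CPM, and at 70.6 CPM, against 116 CPM (-0.70 and -0.72), beside 3.72% of all genes lower there. In the G2 and mitosis range Bok (log2 -1.80 and -2.77) and Casp9 (-3.02 and -0.98; 2 and 1 UMIs) were lower, beside 3.39% of all genes. In the low cycling range Bcl2l14 was higher from 14 and 10 UMIs (1.78 and 3.09) and Bok lower (-0.95 and -1.0), beside 2.46% and 4.61% of all genes. In the Il7r range Htra2, a mitochondrial protease gene, was lower, at 49.9 CPM, against 96.2 CPM, and at 42.7 CPM, against 86.7 CPM, beside 3.34% of all genes lower there. Foxo3 and Bcl2l2 in the stem range, Endog in the megakaryocyte-erythroid range, Birc2 and Tnfrsf1b in the Il7r range, Bok in the Irf8 and Csf1r range and Casp6 in the MHC class II range rested on 1 to 9 UMIs in each library. Over all genes 5.53% were higher in the stem range, 2.38% lower in the megakaryocyte-erythroid range and 3.36% higher in the MHC class II range.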

How the data were processed

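Single-cell 3′ RNA counts of 2 samples, 1 Spp1-/- and 1 WT, were analysed. The authors deposited 1 matrix of UMI counts, 27998 genes by 7884 barcodes, whole numbers from 1 to 436 in 11008556 nonzero entries. Per the submitters' processing notes, Cell Ranger 1.1 and build mm10 were used; cell calling and the treatment of reads that match several genes are not described in the sources used here. Replicates are absent, so the intervals cover counting error only: exact Poisson for levels, exact binomial (Clopper-Pearson) for shares and exact conditional Poisson for ratios, all at 95%.

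UMIs were summed per library or range and scaled to CPM. Each cell was thinned once at random (seed 1) to 2000 UMIs to set ranges. A list's threshold was the smallest number of UMIs, at least 2 (Il7r 1, MHC class II 20), that at most 15% of cells reached, and the low cycling range held at most 25%. The interval call asked for the same direction in both libraries. A gene with no UMI in a range or outside it was not called by fold. No doublet caller was run; leaving out the 5% of cells with the most UMIs was an alternative. The 32 shared barcodes were kept in both libraries. The procedure was run on simulated data drawn with counting error alone, the model the intervals assume. Such a run cannot show how variation between cells or mice affects the calls. Python 3.11.15, numpy 2.4.6, scipy 1.17.1 and pandas 2.3.3 were used.

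The members and lists were chosen with earlier results of these data known, and the bins and crossed ranges once the ranges' values had been seen. Named genes were all 10 members and, of the other pathway lists, those past 1.5-fold in the same direction in both libraries, at most 3 per range by the smaller absolute log2 ratio, and the 3 with the largest absolute log2 ratio between libraries. Some genes that this rule takes are left out here. Genes most alike were sought among those with at least 200 UMIs, over ranges of at least 50 cells in each library. Gene positions came from GENCODE M21, in which 27722 of the 27998 identifiers were found, and promoters from RefSeq.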

Additional observations from a re-analysis of the deposited data

Results flagged for a closer look

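The 61 barcodes removed by the filter, 59 of library 1 with few genes and 2 of library 2 with high mitochondrial shares, were used in no comparison and held 50595 UMIs. Among these were 6 UMIs of Bcl2 and 7 UMIs of Bax, both above the limit of 3 counts that a count of 0 allows. That limit takes no account of the 50595 UMIs counted, so passing it does not show that removed barcodes differ from kept cells. Bid had 2, Bak1 and Bcl2l11 had 1 each, and the other 5 members had 0.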

How the results depend on the processing

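No paired analysis was possible because the labels give no replicate numbers and each genotype has 1 library. With an interval that leaves out 1 as the call, 3 members in place of 0 differed between libraries, and 7 pairs of a member and a range in place of 4 were called. The count of pairs stayed within 3 to 6 under the other alternatives. The death-gene share was 77.6% in library 2 and 79.3% in library 1 without Mcl1, 78.2% and 79.0% over all death and survival genes of the family, and 47.5% and 48.5% without Bax, the last chosen after seeing the data. None of the alternatives run turned the direction of a called value. Of the single values by range 1587 stayed within their interval and 24 did not, 12 of these with levels from thinned UMIs and 8 with ranges from scaled unthinned UMIs. With levels from thinned UMIs, Bcl2 in the granule range of library 2, an uncalled value, was at -0.07 on the log2 scale in place of 0.28, and Bid there at 0.05 in place of 0.45. Under scaling by the median of ratios, the Bax ratio between libraries was 0.02. Depth limits the low members most: below 50 UMIs per range, only large differences lie outside the intervals.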

Other observations

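Within single ranges the members stood apart between the libraries about as often as other genes. The interval of the ratio of library 2 to library 1 left out 1 in 10 of 88 pairs of a measured member and a range, against 10.5% of such pairs over all genes. It left out the median of all genes in the same range in 3 of 88 pairs, against 9.3% over all genes. These 3 are named after their values were seen. Bid in the low cycling range was at 44.2 CPM in library 2, against 25.7 CPM in library 1 (log2 0.78, 0.27 to 1.30). Bcl2l1 in the G2 and mitosis range was at 5.82 CPM, against 15 CPM (-1.37, -2.43 to -0.23), from 23 and 12 UMIs. Mcl1 in the stem range was at 27.5 CPM, against 77.3 CPM (-1.49, -2.94 to -0.08), from 9 and 11 UMIs. Pmaip1, with too few UMIs for a call, had 14 UMIs in unprimed cells of library 2 and 1 in those of library 1.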
